A study of Mus musculus with 14 samples.

Results

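The transcription factor genes Pou5f1, Nanog, Sox2, Klf2, Klf4, Esrrb, Tfcp2l1, Zfp42 and Prdm14, which are active in mouse embryonic stem cells (mESCs), were followed here as genes thought to carry little H3K27me3. They were chosen by name, 9 of 49980 RefSeq genes on the chromosomes of the table. The H3K27me3 of a gene was taken from the peaks within 10 kb of its gene body, and 47 of the 74458 deposited peaks met this rule. Each of the 9 genes had at least 1 such peak, and all 47 peaks and all 9 gene windows passed the filter on low counts. The question was whether the state of the stem cells, as far as this mark shows it at these genes, differed between cells with different deletions.

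H3K27me3 is the trimethylated lysine 27 of histone H3. It is deposited by Polycomb repressive complex 2, which in stem cells settles mostly on CG-rich promoters of developmental regulators that are switched off, and it is usually sparse at transcribed genes. Pou5f1, Sox2 and Nanog form the core of the network that keeps the cells pluripotent. Esrrb, Klf2, Klf4, Tfcp2l1, Zfp42 and Prdm14 belong to the wider network of the naive state, and several of them are lost when cells move to the primed, epiblast-like state.

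H3K27me3 was mapped by Cut&Tag, in which an antibody guides the transposase Tn5 to the mark. The cells were G4 mESCs of a 129/Sv and C57BL/6 hybrid background, grown with fetal calf serum and LIF on CD1 feeder cells. CRISPR-Cas9 had removed a Polycomb loop anchor homozygously, either the Hoxa cluster (3 libraries of H3K27me3) or the region of Wnt6 (2) or of Hmx1 (2). Unedited cells were not analysed here, so the libraries of 1 deletion were set against those of both others together, and the 7 IgG libraries were not used. The labels name no clones, and where each deletion is 1 clone, deletion and clone cannot be told apart.

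Totals over the peaks ranged from 6016500 to 36563541 counts per library. Over the deleted Hoxa2 to Hoxa13 stretch, the Hoxa deletion libraries kept 0.106% to 0.163% of the level in the other deletions. The Wnt6 deletion libraries kept 2.28% and 2.34% over the Wnt6 body, and the Hmx1 deletion libraries kept 0.456% and 0.181% over the Hmx1 body. Cells with an intact locus and a like level of the mark, feeder cells included, would leave signal there. Nothing in the labels says that replicates were separate cultures, so p-values measure only the spread between these libraries. The cells were profiled in bulk, so that fewer cells with the mark and less mark per cell cannot be told apart.

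The promoters of the 9 genes differed widely in CG content, the sequence feature that Polycomb promoters share. RefSeq sequence (GRCm38.p6) was at hand for 8 of the 9 genes, in 11 promoter windows, and 6 windows, from rich to poor in CG and with and without a peak, are printed here. Each is the 250 bases before a transcription start, 5′ to 3′ on the strand of the gene, with every CG in capitals. The windows lie at chr4:55532476-55532725 on the minus strand (Klf4) and, on the plus strand, at chr8:72318812-72319061 (Klf2), chr3:34649745-34649994 (Sox2), chr12:86360867-86361116 (Esrrb, outer start), chr12:86421394-86421643 (Esrrb, inner start) and chr6:122707239-122707488 (Nanog).
Klf4: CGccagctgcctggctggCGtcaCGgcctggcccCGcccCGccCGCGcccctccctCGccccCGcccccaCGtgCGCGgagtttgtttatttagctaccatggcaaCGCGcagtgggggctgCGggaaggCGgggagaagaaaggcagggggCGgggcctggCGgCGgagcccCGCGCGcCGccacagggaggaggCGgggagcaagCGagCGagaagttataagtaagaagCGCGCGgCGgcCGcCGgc
Klf2: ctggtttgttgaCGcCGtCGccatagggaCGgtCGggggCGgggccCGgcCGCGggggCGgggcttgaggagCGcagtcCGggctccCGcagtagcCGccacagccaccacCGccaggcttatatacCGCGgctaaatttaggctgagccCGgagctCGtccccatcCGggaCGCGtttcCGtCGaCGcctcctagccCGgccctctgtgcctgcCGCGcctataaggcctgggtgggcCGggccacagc
Sox2: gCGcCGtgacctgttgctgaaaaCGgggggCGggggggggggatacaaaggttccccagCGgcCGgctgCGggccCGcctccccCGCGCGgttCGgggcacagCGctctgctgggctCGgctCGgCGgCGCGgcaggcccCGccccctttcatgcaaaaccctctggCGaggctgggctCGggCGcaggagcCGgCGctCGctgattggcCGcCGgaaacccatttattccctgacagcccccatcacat
Esrrb, outer start: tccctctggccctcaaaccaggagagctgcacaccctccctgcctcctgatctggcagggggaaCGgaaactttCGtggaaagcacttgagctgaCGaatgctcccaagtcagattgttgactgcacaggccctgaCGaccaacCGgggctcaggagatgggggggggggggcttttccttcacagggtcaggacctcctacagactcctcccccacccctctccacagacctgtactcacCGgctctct
Esrrb, inner start: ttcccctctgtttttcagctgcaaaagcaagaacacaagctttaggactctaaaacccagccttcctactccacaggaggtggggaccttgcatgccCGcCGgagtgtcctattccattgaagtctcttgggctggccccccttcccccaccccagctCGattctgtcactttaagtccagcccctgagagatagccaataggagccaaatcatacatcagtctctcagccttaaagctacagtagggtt
Nanog: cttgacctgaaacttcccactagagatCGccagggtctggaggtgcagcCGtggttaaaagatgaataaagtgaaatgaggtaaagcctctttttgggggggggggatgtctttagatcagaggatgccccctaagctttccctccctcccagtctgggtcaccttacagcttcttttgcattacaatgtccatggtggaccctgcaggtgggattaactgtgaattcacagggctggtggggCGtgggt

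The motif counted was CG, which reads the same on both strands. Klf4 had 32 CG in these 250 bases, Klf2 29 and Sox2 27, counts reached by 4.58%, 6.78% and 8.56% of 32851 RefSeq promoters, whose median was 6. The outer Esrrb start had 6 CG, reached by 50.35% of promoters, and the inner Esrrb start and Nanog had 3 each, reached by 70.97%. Between these extremes, the Tfcp2l1 window had 16 CG, the Zfp42 window 9 and the pair of Pou5f1 windows 8 and 6. The second Nanog window had the fewest, with 2. A peak overlapped 8 of the 11 windows (72.7%), against 43.9% of all RefSeq promoters. Among all promoters the share with a peak was 5.88% at 0 to 2 CG, 23.3% at 3 to 6, 67.5% at 7 to 16 and 89.6% above that. The 6 windows of the 9 genes with 8 CG or more all had a peak. The CG-poor inner start of Esrrb had one as well, and it was the strongest peak near any of the 9 genes.

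The 9 genes were not uniformly low in H3K27me3. Levels are given as CPM, which are counts scaled to a common library total with TMM factors, and compared between genes as the CPM summed over the peaks of the gene window per kb of that window, as the mean of the 3 deletion means. Prdm14 stood at 3.31 CPM per kb, above 92.5% of RefSeq genes, and Sox2 at 2.62, above 90.9%. Klf4 followed at 1.56 (percentile 86.7) and Esrrb at 1.36 (85.4). Klf2 at 0.653 (77.2) and Pou5f1 at 0.525 (74.2) lay lower, and Zfp42 at 0.0992 (49.0), Tfcp2l1 at 0.0813 (46.7) and Nanog at 0.0757 (45.9) lay below the median gene at 0.107. The median percentile of the 9 genes was 77.2, in a ranking where 38.0% of genes had no peak at all. Ranked among the 21900 protein-coding genes alone, Prdm14 was at percentile 90.4, Pou5f1 at 66.7 and Nanog at 32.5. The description as low in H3K27me3 therefore held for Zfp42, Tfcp2l1 and Nanog, and did not hold for the windows of Prdm14 and Sox2. At Sox2, 69.8% of the window sum came from a peak 7021 bp outside the gene body, while the promoter peak held 6.10 CPM.

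**Figure D1:**
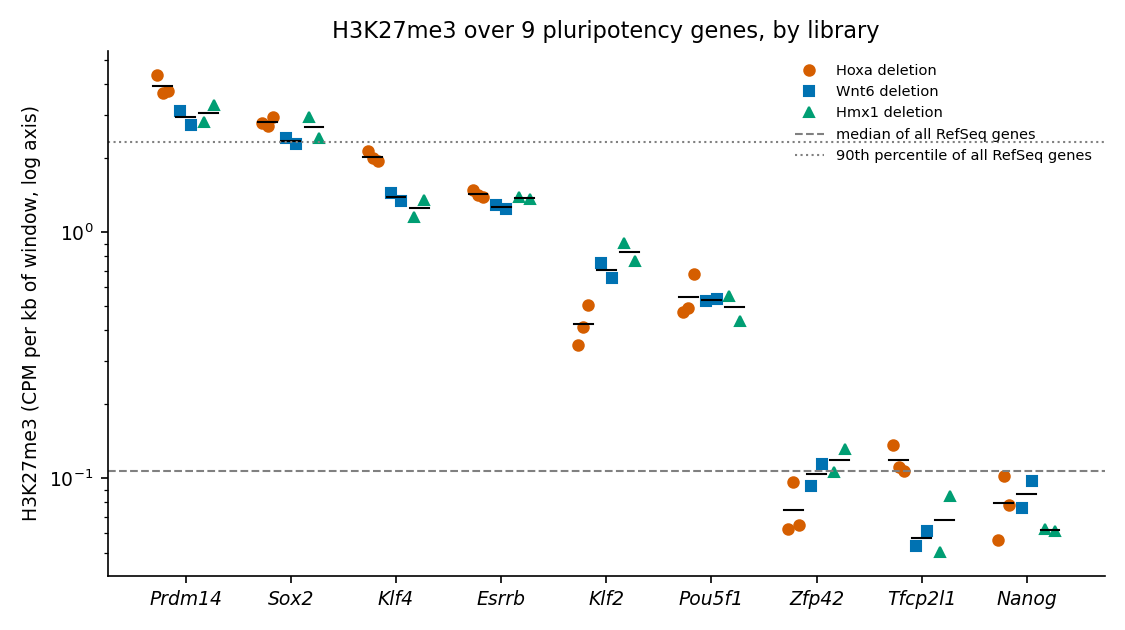
H3K27me3 level of each pluripotency gene (CPM per kb of gene window, log axis) in the 7 libraries, where points are libraries, short black lines are the means of each deletion, and grey lines mark the median and the 90th percentile of all RefSeq genes. Prdm14 and Sox2 lie near or above the 90th percentile of 2.33 CPM per kb, and Zfp42, Tfcp2l1 and Nanog lie around the median of 0.107.

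Between neighbours in this order, the library ranges separated Sox2 (2.30 to 2.96 CPM per kb) from Klf4 (1.15 to 2.13). They also separated Esrrb (1.24 to 1.49) from Klf2 (0.349 to 0.905), and Pou5f1 (0.437 to 0.677) from Zfp42 (0.0626 to 0.132). The other neighbours overlapped. Prdm14 was above Sox2 in 6 of 7 libraries and Klf4 above Esrrb in 5 of 7. Klf2 and Pou5f1, Zfp42 and Tfcp2l1, and Tfcp2l1 and Nanog each kept their order in only 4 of 7 libraries.

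A single peak carried most of the mark at Prdm14 and Sox2, and smaller shares at Klf4 (40.8%) and Esrrb (43.2%). Of the 47 peaks, 36 were under 10 CPM, 22 were below the median of all peaks (3.80 CPM), and 3 were above the 90th percentile (28.8 CPM). Of the 47, 12 overlapped another gene, to which the same counts could belong. The strongest of the 3 lay over the inner start of Esrrb, an orphan nuclear receptor gene, at chr12:86420924-86422840. Its level was 113, 105 and 109 CPM in Hoxa deletion replicates 1 to 3, 108 and 93.4 in the Wnt6 deletion, and 110 and 108 in the Hmx1 deletion. All 7 libraries thus held this peak at a like level, above 97.2% of all peaks. The outer Esrrb start had a peak of 3.27 CPM, and the other 20 Esrrb peaks ranged up to 24.0 CPM.

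Prdm14 encodes a PR domain factor that holds back FGF signalling and DNA methyltransferase genes in naive cells. Its peak at chr1:13125065-13128805 was 3740 bp wide, reached past the higher-coordinate end of the gene and carried 90.2% of the Prdm14 sum. It measured 136, 111 and 111 CPM in the Hoxa deletion, 95.7 and 81.3 in the Wnt6 deletion, and 86.7 and 101 in the Hmx1 deletion. The lowest Hoxa deletion library was above the highest library of the others.

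At Sox2, which encodes the DNA-binding partner of Pou5f1, the strongest peak did not lie on the gene. It was 7021 bp outside the gene body at chr3:34641960-34642974, within the body of the noncoding gene Sox2ot, and carried 69.8% of the Sox2 sum. Its level was 45.4, 43.0 and 46.4 CPM in the Hoxa deletion, 38.1 and 35.8 in the Wnt6 deletion, and 46.3 and 36.1 in the Hmx1 deletion. Here the deletions overlapped. The peak at the CG-rich Sox2 promoter window was weak, at 6.10 CPM, and the peak in the gene body held 1.61 CPM.

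Klf4, a Kruppel-like zinc finger gene that responds to LIF, had 2 peaks of similar size. The promoter peak at chr4:55532291-55533210 measured 22.7, 19.0 and 20.7 CPM in the Hoxa deletion, 15.8 and 13.1 in the Wnt6 deletion, and 12.7 and 13.5 in the Hmx1 deletion. The gene body peak at chr4:55529974-55531802, which was singled out after its values were seen, measured 22.5, 23.6 and 22.04, then 12.8 and 13.6, then 9.64 and 14.1 in the same order. At both peaks every Hoxa deletion library was above every other library. The promoter peak also overlaps the gene Gm12506. The other 2 peaks, 4630 bp and 5513 bp from the gene, held 2.96 and 4.52 CPM, and the deletions overlapped there.

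**Figure D2:**
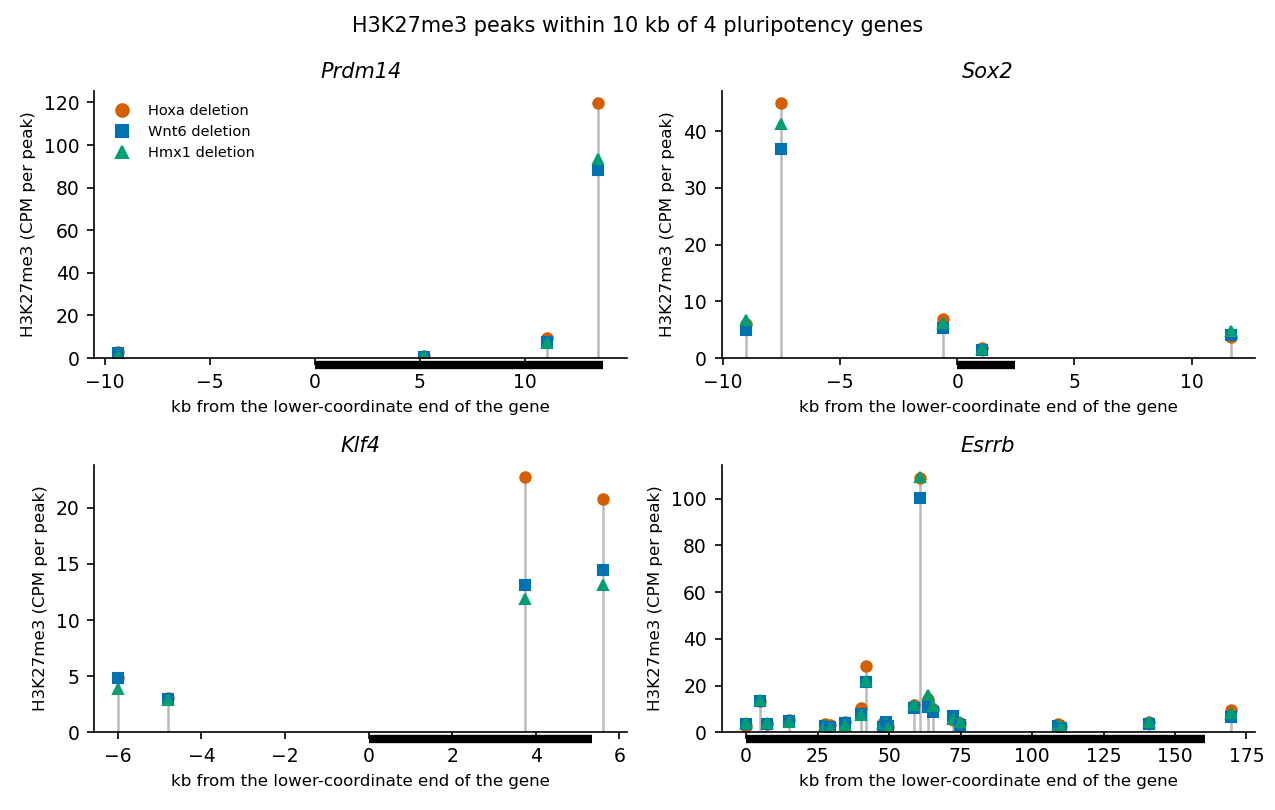
H3K27me3 at every peak within 10 kb of Prdm14, Sox2, Klf4 and Esrrb, plotted as the mean CPM of each deletion against the distance of the peak centre from the lower-coordinate end of the gene (kb), with the gene body as a black bar. A single peak carries most of the mark at Prdm14 (90.2%) and Sox2 (69.8%), whereas Klf4 has 2 similar peaks and Esrrb 22 peaks of which the one over the inner start is strongest.

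The remaining genes had weak peaks. The Klf2 promoter peak at chr8:72318686-72320174 held 5.88, 6.76 and 8.38 CPM in the Hoxa deletion, 12.3 and 10.5 in the Wnt6 deletion, and 14.4 and 13.4 in the Hmx1 deletion. All Hoxa deletion libraries were below all others. Klf2 encodes a second Kruppel-like factor of naive cells.

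For Pou5f1, which encodes Oct4, the strongest of 5 peaks was at chr17:35516816-35517276, 6039 bp outside the gene body and over parts of Cchcr1 and Tcf19. It held 4.59 CPM on average, and the Pou5f1 promoter peak held 1.85 CPM. Over the whole Pou5f1 window the levels were 11.8, 12.2 and 16.8 CPM in the Hoxa deletion, 13.0 and 13.3 in the Wnt6 deletion, and 13.7 and 10.8 in the Hmx1 deletion, with full overlap.

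Nanog, the homeodomain gene, had no peak on the gene. Its only peak lay 4474 bp away at chr6:122702654-122703015, with 1.53, 2.79 and 2.13 CPM in the Hoxa deletion, 2.06 and 2.64 in the Wnt6 deletion, and 1.69 and 1.65 in the Hmx1 deletion. These values overlapped and rested on 10 to 101 counts per library. Zfp42, the gene of the naive marker Rex1, had 1 promoter peak at chr8:43306968-43307396 with 1.998, 3.10 and 2.06 CPM in the Hoxa deletion, 2.98 and 3.66 in the Wnt6 deletion, and 3.38 and 4.21 in the Hmx1 deletion. The second Hoxa deletion library overlapped the others, and the counts were 17 to 140 per library.

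Tfcp2l1, a CP2 family gene that acts downstream of LIF, had 2 weak peaks. The promoter peak at chr1:118627817-118628382 held 5.17, 4.47 and 5.09 CPM in the Hoxa deletion, 2.98 and 2.98 in the Wnt6 deletion, and 1.86 and 3.97 in the Hmx1 deletion. The peak at chr1:118622751-118623269, which is 4654 bp outside the gene body, held 5.41, 4.17 and 3.22 CPM, then 1.13 and 1.75, then 2.03 and 2.60. At both peaks the Hoxa deletion libraries were above all others.

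Set beside other gene lists, the median of the 9 genes fell between those of housekeeping genes and silent developmental genes, though the 9 genes and the housekeeping genes overlapped. The median level was 0.653 CPM per kb for the 9 genes and 0.199 for 16 housekeeping genes, of which B2m at 2.12 and Rpl13a at 0.817 were highest. For 24 other genes of the pluripotency network the median was 0.0742, and 7 of them had no peak. In that list Tfap2c (7.91), a gene also used in trophectoderm, and Tbx3 (5.46), a T-box gene also used in later development, were highest. The medians of developmental lists were 3.22 for primed epiblast, 4.81 for trophectoderm, 5.97 for primitive endoderm, 10.1 for mesendoderm and 15.3 for neuroectoderm genes. For 19 Polycomb targets of later tissues the median was 14.5, with Hoxd12 at 28.0 and Irx3 at 25.5. The highest of the 9 genes, Prdm14 at 3.31, was below the lowest of these Polycomb targets, Sim1 at 3.44.

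**Figure D3:**
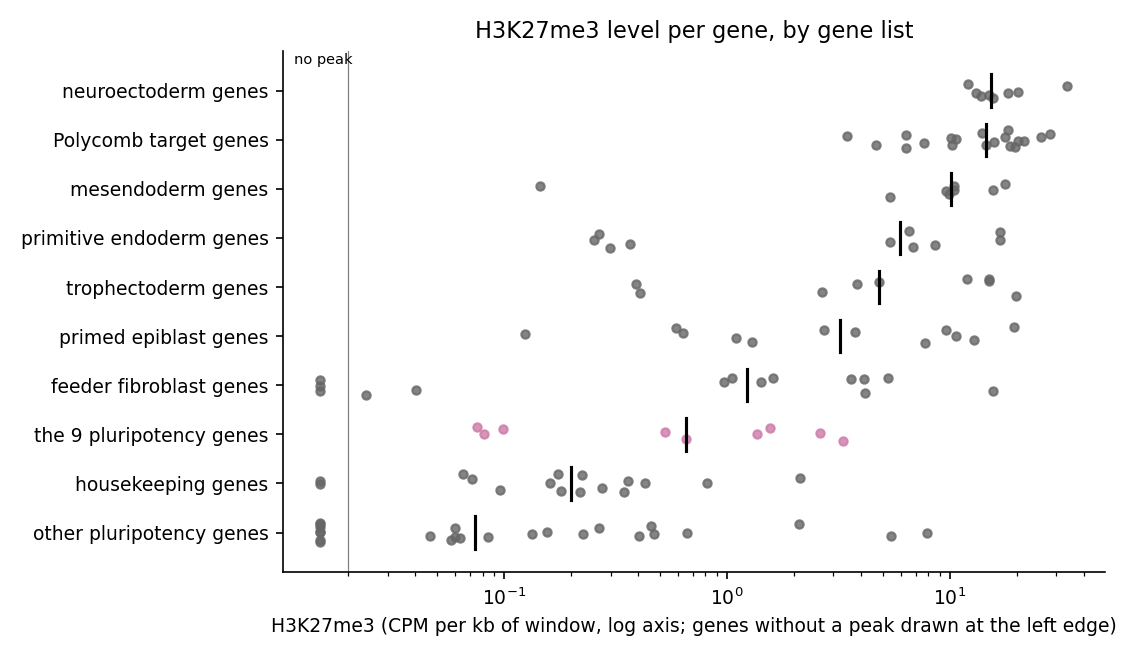
H3K27me3 level of each gene (CPM per kb of gene window, mean of the 3 deletion means, log axis) by gene list, where points are genes, black bars are list medians, and genes without a peak are drawn at the left edge. The 9 pluripotency genes, in colour, spread from 0.0757 to 3.31. Their median of 0.653 lies between those of the housekeeping genes (0.199) and the Polycomb targets (14.5).

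In the comparison of the Hoxa deletion with the others, Klf4, Prdm14 and Tfcp2l1 had more H3K27me3, Klf2 had less, and the other 5 genes did not pass the test. A difference was called at an adjusted p under 0.05 (edgeR quasi-likelihood test, Benjamini-Hochberg over all features) and an absolute log2 fold change over 1. By this rule 0 of the 9 gene windows were called, against 0.771% of all 30996 windows tested, and DESeq2 also called 0. Without the fold minimum, 4 of 9 passed, against 18.1% of all windows, and 5 had an unadjusted p under 0.05. By direction, 3 of 9 were higher, against 12.0% of all windows, and 1 of 9 was lower, against 6.07%. The lower gene, Klf2, lies on chromosome 8, where 68.8% of windows were lower.

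Over the Klf4 window the levels were 54.1, 50.7 and 49.4 CPM in the Hoxa deletion, 36.6 and 34.2 in the Wnt6 deletion, and 29.2 and 34.2 in the Hmx1 deletion. The difference, as a log2 fold change, was 0.60 (SE 0.0895, edgeR adjusted p = 4.62e-06), and no library of the others reached the Hoxa deletion range. Against each other deletion alone, Klf4 was higher by 0.54 (Wnt6, adjusted p = 2.66e-05) and 0.66 (Hmx1, adjusted p = 9.48e-07) on the log2 scale in edgeR. Its adjusted p stayed under 0.05 in all 23 alternative settings of edgeR and DESeq2, with log2 fold changes of 0.51 to 0.71.

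Over the Prdm14 window the levels were 148, 124 and 126 CPM in the Hoxa deletion, 105 and 92.5 in the Wnt6 deletion, and 94.5 and 111 in the Hmx1 deletion. Again the groups did not overlap. The difference was 0.39 (SE 0.0747, edgeR adjusted p = 0.000200), with 0.43 against Wnt6 alone and 0.34 against Hmx1 alone. Prdm14 also kept an adjusted p under 0.05 in all 23 settings, at 0.31 to 0.44.

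Over the Tfcp2l1 window the levels were 10.6, 8.64 and 8.31 CPM in the Hoxa deletion, 4.12 and 4.73 in the Wnt6 deletion, and 3.89 and 6.57 in the Hmx1 deletion. The Hoxa deletion libraries were all higher, with a log2 fold change of 0.84 (SE 0.176, edgeR adjusted p = 0.000593). The fold minimum was passed against the Wnt6 deletion alone (log2 fold change 1.001, adjusted p = 0.000161) and without Hmx1 deletion replicate 2 (1.05, adjusted p = 0.000139). With all libraries downsampled to the smallest total, the adjusted p was 0.0628. The counts at Tfcp2l1 were 23 to 226 per library, so that its size is less certain than that of Prdm14, with 559 to 3541 counts.

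Over the Klf2 window the levels were 7.88, 9.32 and 11.5 CPM in the Hoxa deletion, 17.0 and 14.7 in the Wnt6 deletion, and 20.5 and 17.3 in the Hmx1 deletion. The Hoxa deletion libraries were all lower, with a log2 fold change of -0.81 (SE 0.141, edgeR adjusted p = 5.04e-05). Klf2 and Zfp42 lie on chromosome 8, where most gene windows were lower in the same libraries. The median log2 deviation of chromosome 8 peaks was -0.31 in each Hoxa deletion library and 0.25 to 0.28 in the others, a difference of 0.57. On the other autosomes this deviation was -0.05 to 0.07 in every library. On chromosome 8, 68.8% of the 1854 windows tested were lower in the Hoxa deletion without a fold minimum.

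With the median of each chromosome removed, the log2 fold change of Klf2 was -0.24 (SE 0.140, edgeR adjusted p = 0.307). That of Zfp42 moved from -0.55 (SE 0.240, adjusted p = 0.115) to 0.02 (adjusted p = 0.976). Neither gene then passed the test. Klf4 (0.57), Prdm14 (0.39) and Tfcp2l1 (0.84), on chromosomes 4 and 1, kept their values under the same correction, with adjusted p of 2.02e-05, 0.000342 and 0.00105. The origin of the chromosome 8 shift was not tested.

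**Figure D4:**
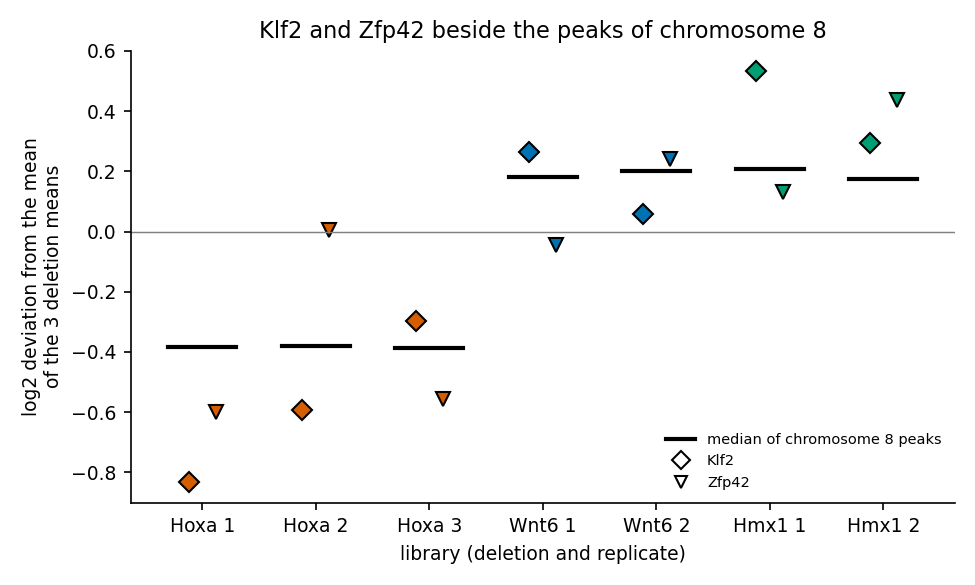
Klf2 and Zfp42 in each library as the log2 deviation of the gene window from the mean of the 3 deletion means, beside the median of all chromosome 8 peaks on the same scale (black lines). The chromosome 8 median is -0.38 to -0.39 in the 3 Hoxa deletion libraries and 0.18 to 0.21 in the other 4, and Klf2 is low in the same 3 libraries.

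Outside chromosome 8, 3 of the 7 pluripotency genes were higher in the Hoxa deletion, where 12.8% of 29142 windows were higher and 2.08% lower. This share depended on the level of the mark. It was 3.47% at up to 0.1 CPM per kb, where Tfcp2l1 lies, 23.2% at 1 to 2, where Klf4 lies, 18.7% at 2 to 5, where Prdm14 lies, and 7.94% at 5 or more. Many genes other than these thus moved the same way. With offsets that follow abundance, chosen after the data were seen, Klf4 (0.51), Prdm14 (0.36) and Tfcp2l1 (0.76) kept edgeR adjusted p of 0.000127, 0.000243 and 0.00517. Under that setting Esrrb passed as well, at 0.14 (adjusted p = 0.0358).

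For the 5 genes that did not pass, the intervals give the range of change the data allow. For Esrrb the levels were 269, 257 and 252 CPM in the Hoxa deletion, 234 and 224 in the Wnt6 deletion, and 251 and 247 in the Hmx1 deletion, with a log2 fold change of 0.12 and a 95% interval of -0.02 to 0.25. The lowest Hoxa deletion library was only just above the highest of the others, and the 2 Wnt6 deletion libraries were lowest. For Sox2 the levels were 62.5, 60.8 and 66.0, then 54.1 and 51.6, then 66.4 and 54.5 CPM, with a log2 fold change of 0.17 (SE 0.0845, edgeR adjusted p = 0.174). The highest Sox2 library belonged to the Hmx1 deletion. Sox2 passed in 3 of 23 settings, against the Wnt6 deletion alone (0.26, adjusted p = 0.0380), without Hmx1 deletion replicate 1 (0.24, adjusted p = 0.0354) and with a 50 kb window (0.21, adjusted p = 0.0337).

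For Pou5f1 the log2 fold change was 0.12 (95% interval -0.17 to 0.40). For Nanog it was 0.11, with a wide interval of -0.46 to 0.69 at these low counts. For Zfp42, the interval around -0.55 was -1.04 to -0.06, which leaves out 0 and reaches past the fold minimum, at an unadjusted p of 0.0281 in edgeR. A p that misses the threshold does not show that the levels were equal.

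**Figure D5:**
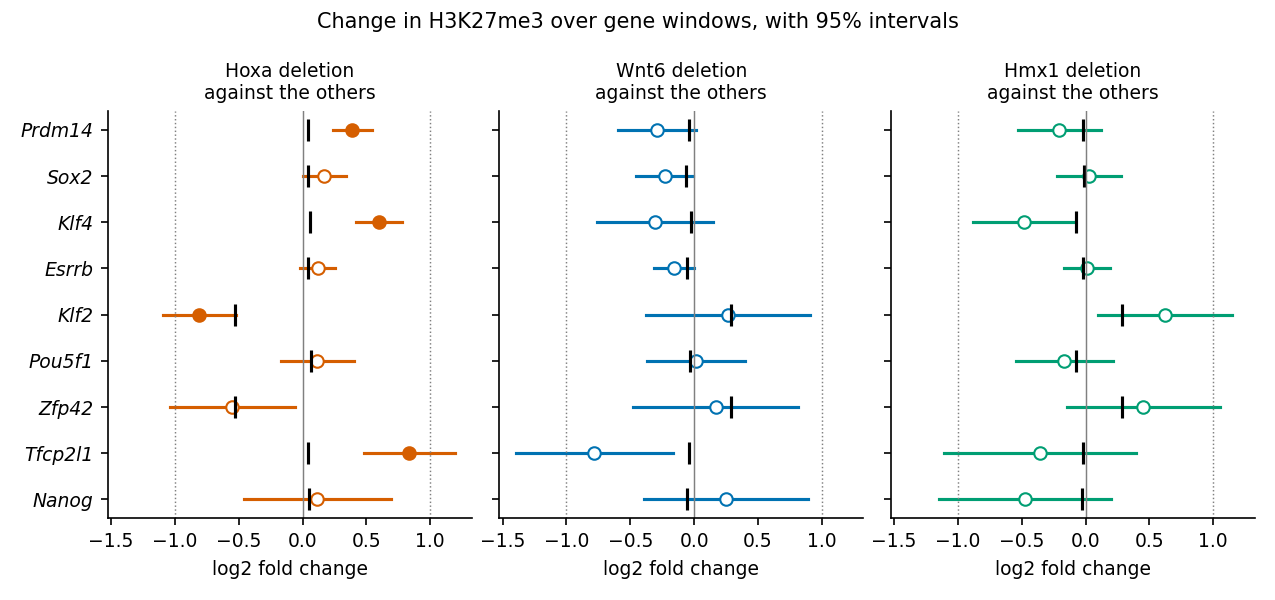
Log2 fold change of H3K27me3 over each gene window, for each deletion against the others, with 95% intervals, where filled points have an adjusted p under 0.05 (edgeR), black ticks mark the median of all gene windows on the chromosome of that gene, and dotted lines mark the fold minimum. In the Hoxa deletion Klf4 (0.60), Prdm14 (0.39) and Tfcp2l1 (0.84) are higher and Klf2 (-0.81) is lower beside a chromosome median of -0.53, and no point is filled for the Wnt6 or the Hmx1 deletion.

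Among single peaks, the Hoxa deletion had 1 of 47 called, against 1.55% of all 74441 peaks tested, and 6 without the fold minimum, against 8.52%. The called peak was the outer Tfcp2l1 peak given above, with a log2 fold change of 1.10 (SE 0.252, edgeR adjusted p = 0.00222). It fell under the fold minimum without Hoxa deletion replicate 1 (0.94, adjusted p = 0.0284) and without Wnt6 deletion replicate 1 (0.97, adjusted p = 0.00918). Against the Hmx1 deletion alone it did not pass (0.78, adjusted p = 0.113). The other 5 were the Klf4 body peak (0.82), the Klf4 promoter peak (0.59), the large Prdm14 peak (0.39), the Klf2 promoter peak (-0.81) and an Esrrb body peak at chr12:86402495-86403701 (0.38, adjusted p = 0.0245). The Prdm14 peak did not pass without Hoxa deletion replicate 1 (0.29, adjusted p = 0.0789) or with a replicate block by description number (0.29, adjusted p = 0.117). The Klf2 promoter peak did not pass with chromosome medians removed (-0.24, adjusted p = 0.454). The strongest Esrrb peak, over the inner start, had a log2 fold change of 0.06 (SE 0.0828, adjusted p = 0.766).

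Against the others pooled, neither the Wnt6 nor the Hmx1 deletion had any of the 9 genes past the test. When each genotype had its own term, Klf2 and Klf4 passed in the Hmx1 deletion, against a mean that includes the Hoxa deletion. For the Wnt6 deletion against the others, edgeR called 0 of 9 windows, against 0.0387% of all windows, and 0 without the fold minimum, against 0.0452%. The count with an unadjusted p under 0.05 was 2 of 9, namely Tfcp2l1 (-0.78) and Sox2 (-0.23). Of the 47 peaks 0 were called, against 0.0497%, with 0 at the adjusted p alone, against 0.0564%, and 5 at the unadjusted p. For the Hmx1 deletion, edgeR called 0 of 9 windows, against 0.0290%, and 0 without the fold minimum, against 0.0484%. There 2 of 9 had an unadjusted p under 0.05, namely Klf4 (-0.49) and Klf2 (0.62). Of the peaks 0 of 47 were called, against 0.0282%, with 0 at the adjusted p alone, against 0.0309%, and 4 at the unadjusted p. DESeq2 called 0 in each of these 4 counts, but it did not give every feature an adjusted p. It gave one to 32594 peaks and 15975 windows for the Wnt6 deletion, and to 29707 peaks and 18980 windows for the Hmx1 deletion. A member without an adjusted p could not be called. These comparisons share libraries with that of the Hoxa deletion, whose libraries are 3 of the 5 in each pooled group.

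With 3 genotype terms, where each deletion was set against the mean of the other deletion means, 2 of 9 genes passed in the Hmx1 deletion without the fold minimum, against 8.30% of all windows. Klf2 was higher by 0.59 (SE 0.143, edgeR adjusted p = 0.00446) and Klf4 was lower by 0.39 on the log2 scale (SE 0.0953, adjusted p = 0.00479). The mean of the others includes the Hoxa deletion, which against the Hmx1 deletion alone stood at -0.94 for Klf2 and 0.66 for Klf4. The Wnt6 deletion against the Hmx1 deletion alone stood at -0.24 (edgeR adjusted p = 0.710) and 0.12 (adjusted p = 0.845). Klf2 lies on chromosome 8, where the median gene window was 0.28 higher in the Hmx1 deletion than in the others pooled. Against the others pooled, with chromosome medians removed, Klf2 stood at 0.32 (edgeR adjusted p = 0.389). The test with 3 genotype terms was not run with that correction. With 3 genotype terms, 0 of 9 passed in the Wnt6 deletion, against 2.77%, and 5 had an unadjusted p under 0.05. Of these, Tfcp2l1 (-0.67, adjusted p = 0.0596) and Prdm14 (-0.25, adjusted p = 0.0606) came closest. Against the Hoxa deletion alone, Klf4, Prdm14, Tfcp2l1 and Klf2 passed in both the Wnt6 and the Hmx1 deletion, which are the pairwise values given above with the sign turned.

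Set directly against each other, the Wnt6 and Hmx1 deletions differed at 0 of the 9 genes without a fold minimum, against 0.655% of all windows (edgeR). The log2 differences ranged from -0.33 (Tfcp2l1, 95% interval -0.82 to 0.17) to 0.54 (Nanog, -0.22 to 1.31), and 0 of 9 had an unadjusted p under 0.05. In a test for any difference among the 3 deletions, 4 of 9 windows passed in edgeR, against 18.6% of all windows, and they were Klf4, Prdm14, Tfcp2l1 and Klf2. Of the peaks 6 of 47 passed, against 7.14%. With chromosome medians removed, the Klf2 window did not pass this test (edgeR adjusted p = 0.274).

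Peaks farther out, 10 to 100 kb from the gene bodies, gave the surroundings of each gene in the Hoxa deletion, read beside the 8.52% of all peaks that passed without a fold minimum. Around Klf4 the median log2 fold change of 5 peaks was 0.28, with 1 higher at the adjusted p, compared with 0.60 over the Klf4 window itself. Around Prdm14 the median of 5 peaks was 0.37, close to the 0.39 of the gene, and 0 passed. Around Tfcp2l1 the median of 5 peaks was 0.14, with 0 passed. Around Klf2 both peaks were lower, with a median of -0.60, beside a median of -0.59 over all chromosome 8 peaks. Around Pou5f1, whose own window did not pass, 3 of 9 peaks were higher, and around Sox2 2 of 8. Around Nanog 1 of 7 was higher and 1 lower, and around Esrrb 0 of 20 passed in edgeR. Zfp42 had no peak at 10 to 100 kb.

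Other lists put these changes in context, each described by its counts beside the 18.1% of all windows that passed in the Hoxa deletion. Of 17 other pluripotency genes with a peak, 6 were higher and 1 lower, and the median log2 fold change was 0.29, compared with 0.12 for the 9 genes and 0.05 for all windows. The one called was Nr5a2, a nuclear receptor gene that can drive Pou5f1, at 49.0 ± 1.96 CPM (SD, n = 3) in the Hoxa deletion, 21.7 in the Wnt6 deletion and 22.7 in the Hmx1 deletion (log2 fold change 1.16, edgeR adjusted p = 4.14e-11). Tbx3 rose by 0.72 on the log2 scale (adjusted p = 9.19e-10) and Tfap2c fell by 0.28 (adjusted p = 0.00437). With abundance offsets the counts in this list were 3 higher and 2 lower.

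Of 12 primed epiblast genes, 4 were higher and 0 lower, including Zic2 (0.27), a zinc finger gene of the primed state and the neural plate. Of 10 primitive endoderm and 8 mesendoderm genes 0 passed in edgeR or in DESeq2, and 0 had an unadjusted p under 0.05. Of 9 trophectoderm genes 3 were higher, of 8 neuroectoderm genes 1 was lower, and of 19 Polycomb targets 0 were higher and 2 lower. The neuroectoderm gene, Sox1 (-0.54), and Irx3 (-0.55) among the Polycomb targets lie on chromosome 8 beside Klf2 and Zfp42. Of 14 housekeeping genes with a peak 2 were higher. With abundance offsets the counts were 4 higher and 3 lower in the primed epiblast list and 3 higher and 2 lower among the Polycomb targets. Over the 108 list genes tested other than the 9, the Wnt6 deletion had 0 and the Hmx1 deletion 0 at the edgeR adjusted p, where 9 and 16 had an unadjusted p under 0.05 and DESeq2 passed 2 and 2. Windows to which DESeq2 gave no adjusted p count as not passed. With a term for each genotype, 5 and 12 of the 108 passed in edgeR.

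Feeder cells could add their own H3K27me3 over the same genes, which was not tested. Fibroblast genes cannot measure it, because the mark is usually sparse at transcribed genes and feeder cells would add little there. Their values are given as a description. Of 14 fibroblast genes, 11 had a peak and 0 passed in the Hoxa deletion in edgeR or DESeq2, with 0 at an unadjusted p under 0.05. Their summed level was 1604 to 1718 CPM in the Hoxa deletion, 1685 and 1534 in the Wnt6 deletion, and 1705 and 1744 in the Hmx1 deletion. Twist1 (15.5 CPM per kb) and Pdgfrb (5.29) were highest, and Col3a1, Col5a2 and Lum had no peak. Housekeeping genes, a measure of signal outside Polycomb targets, summed to 175 to 182 CPM in the Hoxa deletion, 168 and 160 in the Wnt6 deletion, and 164 and 154 in the Hmx1 deletion, so that this sum was also highest in the Hoxa deletion. Polr2a, at 24.1 CPM against 18.2 and 15.02, and Gusb, at 15.1 against 10.1 and 10.1, held most of that difference. The part of such background in the changes at Klf4, Prdm14 and Tfcp2l1 was not tested.

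The genes with the window levels most like those of Esrrb, Prdm14 and Sox2, which had the highest sums, were found by the root mean square difference of log2 CPM over the 7 libraries, among 31000 genes. For Esrrb they were Ggt1 (0.0365) and Cacna2d4 (0.0378). For Sox2 they were Rpl30 (0.0771) and Mir542 (0.0808). For Prdm14 they were Pmaip1 (0.112) and Gm24401 (0.113).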

How the data were processed

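Cut&Tag libraries for H3K27me3 from mESCs with a Hoxa, Wnt6 or Hmx1 deletion were analysed from a table of raw counts over 74458 shared peaks, deposited by the authors without normalization. Submitters' processing notes name mm10, Bowtie2, Trimmomatic, SAMtools, Picard, MACS2 and deepTools. How the peak list was made, and whether reads or fragments were counted, is not given in the sources used here. Positions are as deposited. Whether starts count from 0 or 1 is not stated, and exons and introns were not assigned. Groups came from the sample titles.

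Peaks were joined to RefSeq genes (GRCm38.p6, 49980 genes) within 10 kb of the gene body, and counts were summed per gene, so that neighbouring genes share peaks. Counts were filtered with filterByExpr, which removed 17 peaks, scaled by TMM factors and tested with glmQLFit and glmQLFTest in edgeR 4.0.16 (R 4.3.3, limma 3.58.1), each deletion against the other 2 pooled, with Benjamini-Hochberg adjustment over all features. DESeq2 1.42.0 was an alternative. Log2 CPM used a prior count of 2. Standard errors came from the F statistic. The procedure was tested on simulated data. Plots used Python 3.11.15 with matplotlib 3.10.9.

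Totals were 6016500 to 36563541 counts per library, so that the smallest, Hmx1 deletion replicate 1, sets the precision of weak peaks. Alternatives were other scalings, filters, windows, models, replicate blocks, downsampling and leaving out each library. The 9 genes, the lists and the tests were chosen with earlier results of these data known. All 9 genes are named, with the strongest peak of each and any called peak. Of each list the 2 genes with the highest level and any called gene could be named, and for the 3 members with the highest sum the 2 most alike genes. Other named list genes were chosen after their values were seen.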

Additional observations from a re-analysis of the deposited data

How the results depend on the processing

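Over 1416 recomputed values, 4 gained a call, 5 lost it, 18 counts or percentiles moved, and 75 changed sign without a call. The count of reversed calls was 0, but only 1 member peak and 0 member genes were called for any deletion against the others. Few values thus had a call that could reverse, and this 0 does not measure stability. Without a fold minimum, member peaks called in the Hoxa deletion numbered 6 in place of 1, and member genes 4 in place of 0. The 1 called peak, near Tfcp2l1, gave 0 calls against the Hmx1 deletion alone, after downsampling and with peaks on the gene bodies alone, and 3 member peaks were called with a 50 kb window. With each library left out, the count of member peaks called in the Hoxa deletion was 0 to 1 and that of member genes 0 to 1. Where this left 1 library of a deletion, that library was assumed to vary like the others. Against the Wnt6 deletion alone the Hoxa deletion had 1 member gene called, and the Wnt6 deletion against the Hoxa deletion alone had 1 member peak and 1 member gene called. With a term for each genotype, Klf2 and Klf4 passed the adjusted p in the Hmx1 deletion, against a mean that includes the Hoxa deletion. The cause of these differences was not tested.

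The replicate numbers were not taken to pair the samples. Libraries of the same number had correlations of their deviations from the deletion mean between -0.0452 and 0.0836 by title. By description the correlations were between -0.118 and 0.0583. In the Wnt6 and Hmx1 deletions the deviations of the replicates mirror each other, so these values cannot show whether samples were paired. With a replicate block by title number, 1 member peak and 0 member genes were called in the Hoxa deletion. With a replicate block by description number 0 member peaks were called. The block left the Wnt6 and Hmx1 deletions at 0.

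The median percentile of the 9 genes, 77.2, was 76.8 to 77.6 with each library left out and 72.4 to 81.5 within single libraries. It was 70.9 with a 50 kb window, 68.5 with only peaks on no other gene, 69.9 without division by window length, 63.3 among genes with a peak and 70.6 among protein-coding genes, the last chosen after the data were seen. Depth limits Nanog and Zfp42, with 10 and 17 counts in their smallest libraries.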
